A study of Rattus norvegicus with 8 samples.

Results

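The genes described here build and regulate the contractile apparatus and the actin cytoskeleton of smooth muscle, in cells of the rat aorta treated with angiotensin II or left untreated. They were chosen by name: 42 symbols, of which 40 had a locus in the deposited RNA table that matched exactly 1 symbol, out of 14767 symbols with a usable locus. Where a symbol matched several loci, the locus with the highest mean level stood for it. The RNA and marks of Cnn2 and Rock1 were not analysed here. Of the 40 genes, 38 were expressed, at 1 FPKM or more in at least 1 library (FPKM is the fragment count scaled to transcript length and library size).

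The cells were primary smooth muscle cells of Sprague-Dawley rat thoracic aorta, grown in serum-containing M199 medium. The AngII cells were starved of serum overnight and given 0.1 uM angiotensin II (AngII), a peptide hormone that constricts vessels, for 3 h. Control cells had no treatment; whether they were starved too is not stated in the labels, so starvation and AngII cannot be told apart. Each condition had 1 RNA-seq, 1 H3K4me3 and 1 H3K36me3 library, so the differences below have no replicate check and no test could be made.

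Smooth muscle contracts when myosin slides along actin, and the regulatory light chain of myosin must first be phosphorylated by myosin light chain kinase. Another kinase, ROCK, favours the phosphorylated state by inhibiting the phosphatase that removes this phosphate. Serum response factor, with its cofactor myocardin, binds CArG boxes in the promoters of many of these genes, and cultured smooth muscle cells are known to lose part of the contractile programme. H3K4me3 is a histone mark of active promoters and H3K36me3 marks transcribed gene bodies.

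The cells carried the RNA of the smooth muscle lineage with 1 gap. Of 10 smooth muscle markers 9 were expressed, and together they summed to 5869 FPKM after AngII and 5661 FPKM in control, most of it from Tagln. Desmin (Des), the muscle intermediate filament protein, was the exception, with 0.557 FPKM after AngII (bounds 0.203 to 0.911) and 0.734 FPKM in control (0.287 to 1.18). None of 6 matched endothelial markers was expressed, with 3 of them listed at 0 and sums of 0.462 FPKM after AngII and 0.718 FPKM in control. Of 8 leukocyte markers 2 were expressed, and the 8 had sums of 12.4 FPKM after AngII and 11.6 FPKM in control. Those 2 were Cd14, with 6.77 FPKM after AngII and 5.46 FPKM in control, and Cd74, with 5.04 and 5.51 FPKM. Listed at 0 were 3 of the 8, among them Ptprc, which defines leukocytes. Of 6 matched adventitial fibroblast markers 5 were expressed, with sums of 134 FPKM after AngII and 171 FPKM in control, most of it from Lum. In whole cultures fewer cells of a type and less RNA per cell cannot be told apart, and the part of these cells in the values below was not tested.

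Contractile and cytoskeletal genes were among the most abundant RNAs. The median member stood at percentile 97.5 of the 8354 expressed symbols after AngII and at percentile 97.1 in control. Beta-actin (Actb), the ubiquitous cytoplasmic actin, had 8406 FPKM after AngII (bounds 3290 to 13521) and 7625 FPKM in control (2999.5 to 12250). Its listed interval holds 12 loci. Tagln, or SM22 alpha, an actin-binding protein used as a smooth muscle marker, had 5244 FPKM after AngII (2230 to 8259) and 5103 FPKM in control (2190 to 8015). The intermediate filament protein vimentin (Vim) had 2920 FPKM after AngII (1255 to 4586) and 3028 FPKM in control (1297 to 4758). Tropomyosin 1 (Tpm1), which lies along the actin filament, had 1653 FPKM after AngII (1193 to 2113) and 1405 FPKM in control (1027 to 1783). Filamin A (Flna), an actin crosslinker, had 1337 FPKM after AngII (509 to 2165) and 1440 FPKM in control (539 to 2340). These 5 genes had the highest mean levels of the set, and for each of them the bounds of the 2 conditions overlapped.

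**Figure D1:**
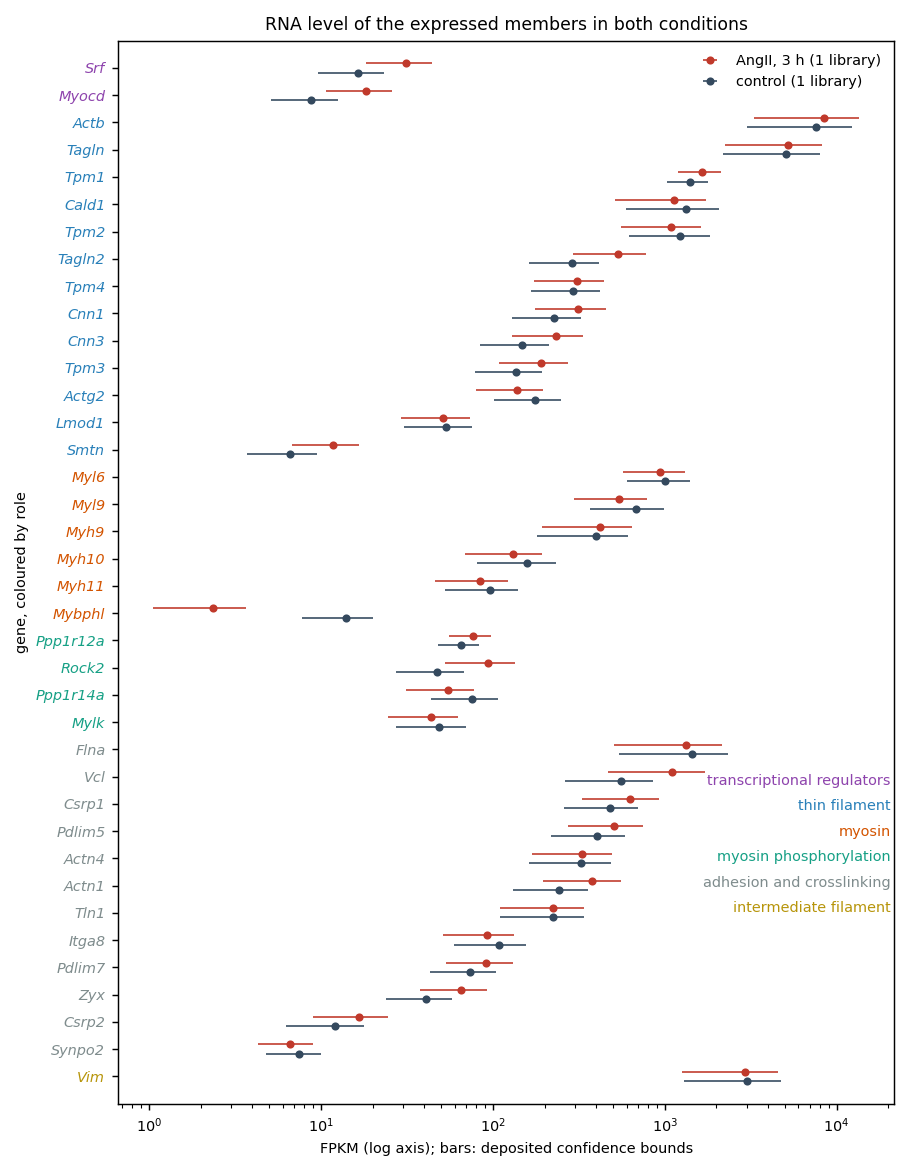
FPKM of the 38 expressed genes on a log axis, with AngII above control for each gene, 1 library per condition, grouped and coloured by role; bars are the bounds deposited by the authors. Levels run from 2.36 FPKM (Mybphl after AngII) to 8406 FPKM (Actb after AngII), and Mybphl is the gene whose bars do not overlap.

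After AngII the set as a whole stayed close to its control level while the typical expressed gene was lower. The log2 ratio used throughout is log2((AngII FPKM + 1)/(control FPKM + 1)), so differences of low-level genes come out too small. Its median was 0.07 over the 38 expressed members (interquartile range -0.14 to 0.48), beside -0.22 over all 8354 expressed symbols (-0.46 to 0.08). Of the members 22 lay above 0, against 30% of all expressed symbols. The median member stood at percentile 97.1 in control, and the RNA ratios were not set beside symbols of like abundance. Whether abundant genes in general behaved in this way was not tested. None of the 38 was 2-fold higher, where 3.89% of expressed symbols were, and 1 was 2-fold lower, where 2.96% were. That gene, Mybphl, was also the 1 member whose deposited bounds did not overlap, against 5.21% of expressed symbols, 3.02% higher and 2.19% lower. At a threshold of 1.5-fold, which was not planned, 9 members were higher, or 23.7% (exact 95% interval 11.4 to 40.2), beside 7.94% of expressed symbols. At the same threshold 1 member was lower, beside 16.4%. The interval covers counting error only and is no test, because the members were chosen with earlier results of these data known.

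How the counts divide depends on the scaling, because the median expressed locus was shifted by -0.24. With AngII values multiplied by 1.21 to centre that locus, 6 members were 2-fold higher (Myocd, Srf, Tagln2, Smtn, Rock2 and Vcl) and 1 was lower, and 34 of 38 lay above 0, all but Mybphl, Ppp1r14a, Actg2 and Myl9. Scaled to the upper quartile, 3 were 2-fold higher (Myocd, Rock2 and Vcl), where 4.31% of expressed symbols were, and 1 was lower. Under centring the share of all expressed symbols that was 2-fold higher was 5.88%. The members' median was 0.35 and that of all expressed symbols 0.03. The values that follow are as deposited.

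**Figure D2:**
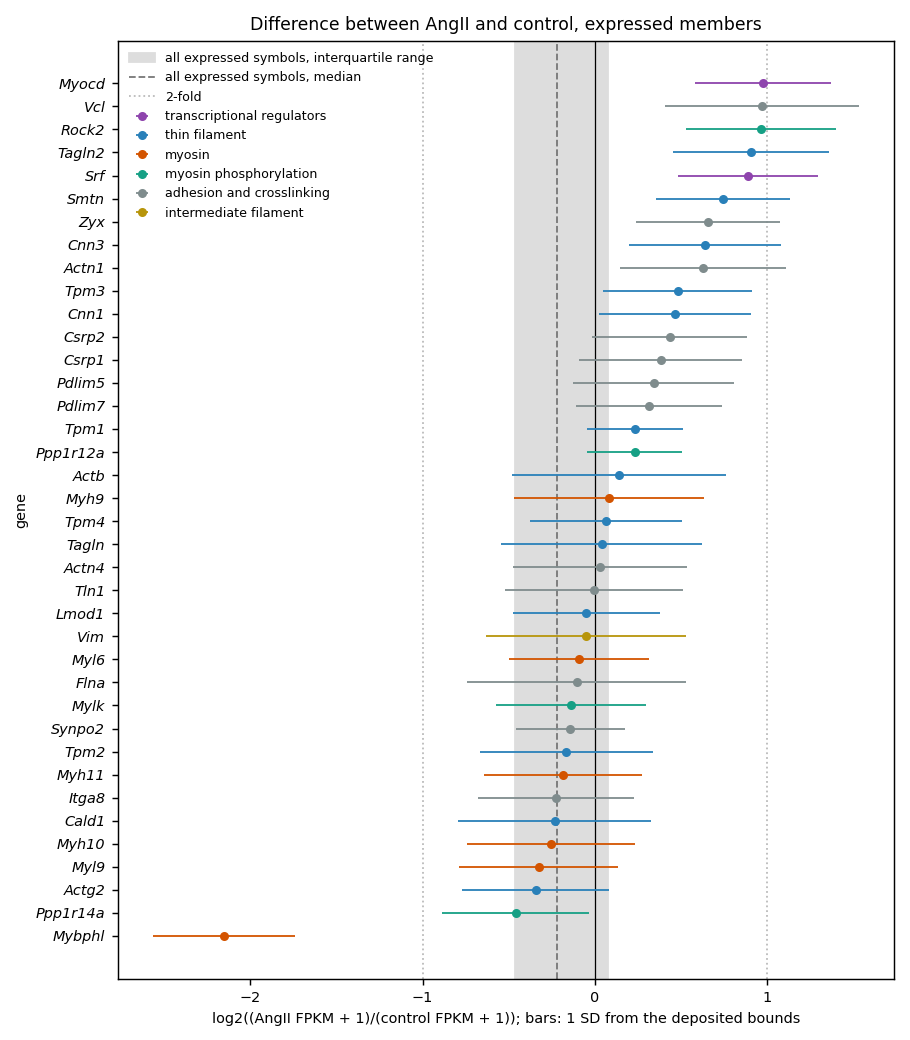
Log2 ratio of AngII over control for the 38 expressed genes, with 1 library per condition; bars are 1 SD derived from the deposited bounds, the dashed line is the median of all expressed symbols (-0.22) and the grey band their interquartile range. Mybphl (-2.15) lies beyond the 2-fold line on the left, and Myocd, Vcl and Rock2 (0.97, 0.97 and 0.96) lie just inside the one on the right.

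Both transcriptional regulators of the programme were higher after AngII. Myocd encodes myocardin, a coactivator of serum response factor largely restricted to heart and smooth muscle, and had 18.3 FPKM after AngII (10.7 to 25.8) and 8.81 FPKM in control (5.10 to 12.5). Its log2 ratio of 0.97 (model SD 0.39) is the largest of the set, but its bounds overlapped. Serum response factor (Srf) itself had 31.4 FPKM after AngII (18.3 to 44.5) and 16.5 FPKM in control (9.64 to 23.4), a log2 ratio of 0.89 with overlapping bounds. The listed interval of Srf on chromosome 9 spans 31 loci (8762285 to 10163322), so the assignment of its marks is uncertain, whereas Myocd has an interval of its own on chromosome 10 (51496225 to 51588226).

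Promoter sequences of the set are from RefSeq on the assembly GRCr8, which is not the rn4 build of the files, and run from 250 bases before to 50 bases after a gene's start. They were available for 35 of the 42 symbols, in 40 windows. CArG boxes, the sites that serum response factor is known to bind, were in 2 of these windows (5%), those of Srf and Cnn2, and in 1.64% of all 33469 windows. Only exact boxes were counted, CC and GG with nothing but A or T between them, as in CCATATAAGG. The letters CATTCC, the core of the MCAT element known to bind TEAD factors, were in 8 of the 40 windows (20%) on either strand and in 14.2% of all windows. The windows with CATTCC were those of Cald1, Flna, Myh10, Mylk, Tagln2, Tpm1, Vcl and Zyx. The TATA letters TATAAA, also searched on both strands, were in 4 windows (10%), those of Cald1, Myh9, Srf and Vim, and in 14.2% of all windows; none of the marked sites overlaps another. Letters outside these windows, and symbols without a window, were not searched, so a site cut by a window edge was not counted. The Vcl window opens with cttataagg, and the letter before it was not read. Shown first is the Srf promoter (chr9:21923826-21924125, plus strand), because Srf is the regulator of the set and its window holds 2 CArG boxes, in capitals, that begin 81 and 61 bases before the start:
Srf: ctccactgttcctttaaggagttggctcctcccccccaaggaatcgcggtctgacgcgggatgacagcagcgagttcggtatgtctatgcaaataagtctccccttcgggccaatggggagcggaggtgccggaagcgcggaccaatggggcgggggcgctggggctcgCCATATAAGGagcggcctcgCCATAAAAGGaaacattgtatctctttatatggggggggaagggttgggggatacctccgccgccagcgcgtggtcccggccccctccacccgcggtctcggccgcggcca
Vcl (chr15:3404751-3405050, minus strand) and Tagln2 (chr13:87499158-87499457, plus strand) are shown because they were the structural genes with the highest log2 ratios, with CATTCC on either strand in capitals:
Vcl: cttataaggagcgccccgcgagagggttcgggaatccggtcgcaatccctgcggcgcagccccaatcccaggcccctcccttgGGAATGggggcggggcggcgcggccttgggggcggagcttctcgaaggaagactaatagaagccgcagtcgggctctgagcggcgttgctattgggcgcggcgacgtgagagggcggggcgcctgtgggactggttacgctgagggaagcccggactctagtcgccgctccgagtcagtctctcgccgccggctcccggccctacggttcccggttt
Tagln2: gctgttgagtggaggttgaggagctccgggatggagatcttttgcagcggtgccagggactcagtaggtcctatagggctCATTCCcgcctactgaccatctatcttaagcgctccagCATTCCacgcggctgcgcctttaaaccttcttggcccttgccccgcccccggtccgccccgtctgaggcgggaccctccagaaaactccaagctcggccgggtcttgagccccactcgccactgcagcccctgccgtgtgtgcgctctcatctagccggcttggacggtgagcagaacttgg
Mybphl (chr2:198693202-198693501, plus strand) is shown because it was the member with the largest difference; none of the 3 motifs was in its window:
Mybphl: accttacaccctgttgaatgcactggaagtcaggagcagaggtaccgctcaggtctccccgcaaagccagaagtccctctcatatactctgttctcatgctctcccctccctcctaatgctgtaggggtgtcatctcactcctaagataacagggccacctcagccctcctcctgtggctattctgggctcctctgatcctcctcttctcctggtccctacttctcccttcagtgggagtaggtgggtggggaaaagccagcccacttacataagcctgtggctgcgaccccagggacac

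Of 13 expressed thin filament genes, the actins and the proteins that bind them, 9 lay above 0 and 4 below, with a median log2 ratio of 0.14, and 3 were 1.5-fold higher. Tagln2, the broadly expressed relative of Tagln, had 539 FPKM after AngII (294 to 783) and 288 FPKM in control (163 to 413), a log2 ratio of 0.90 beside 0.04 for Tagln. Its listed interval on chromosome 13 (88487238 to 88569578) is shared by 4 loci. As a share of the summed FPKM of both genes, Tagln2 made up 9.31% after AngII and 5.34% in control. Smoothelin (Smtn), an actin-associated marker of contractile smooth muscle, had 11.8 FPKM after AngII (6.82 to 16.7) and 6.62 FPKM in control (3.74 to 9.50), a log2 ratio of 0.74. Calponins inhibit the myosin ATPase on actin. Calponin 3 (Cnn3), the acidic form, had 232 FPKM after AngII (129 to 334) and 149 FPKM in control (84.7 to 212), a log2 ratio of 0.64. Calponin 1 (Cnn1), the smooth muscle form, had 315 FPKM after AngII (177 to 453) and 228 FPKM in control (130 to 326), a log2 ratio of 0.46. Bounds overlapped for all 4 of these genes.

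The other thin filament genes lay within 1.5-fold of their control levels. Among tropomyosins, Tpm3 had 191 FPKM after AngII and 136 FPKM in control (log2 ratio 0.48), while Tpm2 had 1092 and 1225 FPKM (-0.17) and Tpm4 had 308 and 294 FPKM (0.06). Tpm1 made up 51.0% of the summed tropomyosin FPKM after AngII and 45.9% in control, and Tpm2 made up 33.7% and 40.0%. An accession without a symbol is listed at the Tpm2 locus and at the Tpm4 locus, so reads may be shared between them. Caldesmon (Cald1), an actin-binding inhibitor of contraction, had 1130 FPKM after AngII and 1329 FPKM in control (-0.23), and leiomodin 1 (Lmod1), a nucleator of actin filaments, had 51.4 and 53.2 FPKM (-0.05). Enteric gamma-actin (Actg2) had 138 FPKM after AngII and 176 FPKM in control (-0.34), while Actb had a log2 ratio of 0.14. The coding sequences of actins are nearly identical, so the level of each actin is uncertain.

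Myosin genes lay mostly at or below their control levels. Of 6 expressed members 1 lay above 0 and 5 below, with a median log2 ratio of -0.22, the same as that of all expressed symbols. Mybphl, a relative of myosin-binding protein H known from mouse and human atrial muscle, had 2.36 FPKM after AngII (1.06 to 3.67) and 14.0 FPKM in control (7.74 to 20.2). Its bounds lay apart and its log2 ratio was -2.15 (model SD 0.41), which was -1.36 with a pseudocount of 5. The gene stood at percentile 13.5 of expressed symbols after AngII and at percentile 52.7 in control. Its locus is on chromosome 2 (203934529 to 203948031).

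The classical smooth muscle myosins differed little between conditions. Myh11, the smooth muscle heavy chain and the most specific marker of the lineage, had 84.7 FPKM after AngII and 96.5 FPKM in control (-0.19). Its nonmuscle relatives were more abundant: Myh9 had 420 FPKM after AngII and 397 FPKM in control (0.08), and Myh10 had 132 and 157 FPKM (-0.25). Myh11 thus made up 13.3% of the summed FPKM of the 3 heavy chains after AngII and 14.8% in control. The Myh9 locus is listed with further accessions that have no symbol in the rat table, so its level is uncertain. The light chains Myl9, the regulatory chain that is phosphorylated, and Myl6, the essential chain, had 542 and 944 FPKM after AngII and 681 and 1006 FPKM in control (-0.33 and -0.09). Under centring the ratios of Myl6, Myh11 and Myh10 were above 0.

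Genes that set myosin phosphorylation included 1 of the highest ratios of the set. Rock2, a kinase that inhibits myosin phosphatase, had 93.6 FPKM after AngII (52.4 to 135) and 47.5 FPKM in control (27.3 to 67.7), a log2 ratio of 0.96 with overlapping bounds. Ppp1r14a encodes CPI-17, an inhibitor of myosin phosphatase, and was at the other end of this group with 54.7 FPKM after AngII (31.3 to 78.1) and 75.6 FPKM in control (43.7 to 107), a log2 ratio of -0.46. Myosin light chain kinase (Mylk) had 43.9 FPKM after AngII and 48.4 FPKM in control (-0.14), and the targeting subunit of myosin phosphatase (Ppp1r12a) had 76.9 and 65.4 FPKM (0.23). Rhoa, the GTPase that activates ROCK, is listed at 0 in both conditions at a locus on an unplaced part of chromosome 16, so no level can be given for it.

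Adhesion and crosslinking genes, which anchor actin at the membrane and bundle it, were higher for some partners and level for others. Of 12 expressed members 8 lay above 0, with a median log2 ratio of 0.33, and 3 were 1.5-fold higher. Vinculin (Vcl), which links integrin adhesions to actin, had 1096 FPKM after AngII (469 to 1723) and 559 FPKM in control (263 to 855), a log2 ratio of 0.97. Zyxin (Zyx), a LIM protein of stress fibres, had 64.9 FPKM after AngII (37.7 to 92.2) and 40.8 FPKM in control (23.9 to 57.7), a log2 ratio of 0.66, at an interval it shares with Epha1. The crosslinker alpha-actinin 1 (Actn1) had 377 FPKM after AngII (195 to 560) and 244 FPKM in control (131 to 357), a log2 ratio of 0.63. Bounds overlapped for all 3.

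Their close partners had near equal levels. Talin 1 (Tln1), which activates integrins and binds vinculin, had 225 FPKM in either condition (-0.01). Alpha-actinin 4 (Actn4) had 331 FPKM after AngII and 325 FPKM in control (0.03), so that Actn1 made up 53.3% of the summed alpha-actinin FPKM after AngII and 42.9% in control. Flna had a log2 ratio of -0.11. The LIM proteins Csrp1 (0.38), Csrp2 (0.43), Pdlim5 (0.34) and Pdlim7 (0.31) lay above 0, while the nephronectin receptor subunit Itga8 (-0.23) and the actin-bundling protein Synpo2 (-0.14) lay below it. Under centring Tln1, Flna, Itga8 and Synpo2 were above 0 too. Vim, the 1 expressed intermediate filament gene, had a log2 ratio of -0.05.

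H3K4me3 covered unusually long stretches at these genes in both conditions. Lengths were compared for the 27 expressed members with an interval of their own, since the other 11 share their listed interval with further loci. Within the locus and 1 kb on either side, the median length under H3K4me3 regions was 10.2 kb after AngII and 7.42 kb in control. Over all 6452 expressed symbols with an interval of their own it was 3.68 kb after AngII and 3.54 kb in control. Over the 674 of these with a mean of at least 67.8 FPKM, the lower quartile of the 27 members, it was 5.25 and 4.88 kb. Long loci can hold more of the mark, and locus length was not matched here. The whole window of Tagln, Tpm2 and Myl6 was covered in both conditions, so no difference could be seen there. The whole AngII list covered 82.6 Mb and the control list 81.5 Mb, with bins of 160 and 153 bp.

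After AngII the stretch under H3K4me3 was longer at 18 of the 27 members, beside 52.4% of expressed symbols, and shorter at 5 (Myocd, Actg2, Cnn3, Mybphl and Ppp1r14a), beside 39.7%. Of the 20 members among the 674 abundant symbols it was longer at 14 and shorter at 2, beside 57.9% and 28.2% of those symbols. The stretch was at least 1.5 times as long at 5 of the 27 members (18.5%, exact 95% interval 6.30 to 38.1), beside 7.33% of expressed symbols: Vcl, Pdlim5, Csrp1, Rock2 and Itga8. This threshold was not planned, and its intervals cover counting error only. All 5 are among the 20 abundant members (25%, interval 8.66 to 49.1), beside 9.35% of the abundant symbols. Vcl and Csrp1 fell short of 1.5 times with a window of 5 kb on either side. Pdlim5 was not counted with low-scoring regions left out, and the count needs the mark in both conditions. Other members entered: Cnn1 with the window of 5 kb, Myh10 on the locus alone, and Tpm3, Actn1 and Csrp2 with low-scoring regions left out. Among members with the mark in both conditions none was 1.5 times as long in control, beside 4.23% of expressed symbols and 1.78% of abundant ones. At Vcl it was 51.6 kb after AngII and 33.8 kb in control, and this difference ranked 3 among the 6452 symbols. There 1 region of 51.5 kb after AngII (chromosome 15, 3529151 to 3580670) lay over 3 control regions, the longest of 28.0 kb (3552637 to 3580635). At Pdlim5, whose protein tethers kinases to Z-discs and actin, the mark covered 18.6 kb after AngII, in 5 regions, and 3.37 kb in control, in 2 regions, at rank 10. Actn1 had 53.4 kb after AngII and 42.4 kb in control (rank 19), Csrp1 20.9 and 13.6 kb (rank 35), and Rock2 11.5 and 5.01 kb (rank 47). Among members with RNA 1.5-fold higher and an interval of their own, the mark was longer at Vcl, Rock2, Actn1 and Smtn. It was shorter at Myocd and Cnn3. Members with log2 ratios below 0 also had a longer stretch, among them Itga8 (-0.23) and Myh10 (-0.25). A link between RNA and mark was not tested. At Myocd H3K4me3 covered 7.94 kb of the window after AngII and 8.29 kb in control. The longest Myocd region ran past the window, and in full it was 12.5 kb after AngII and 8.11 kb in control.

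**Figure D3:**
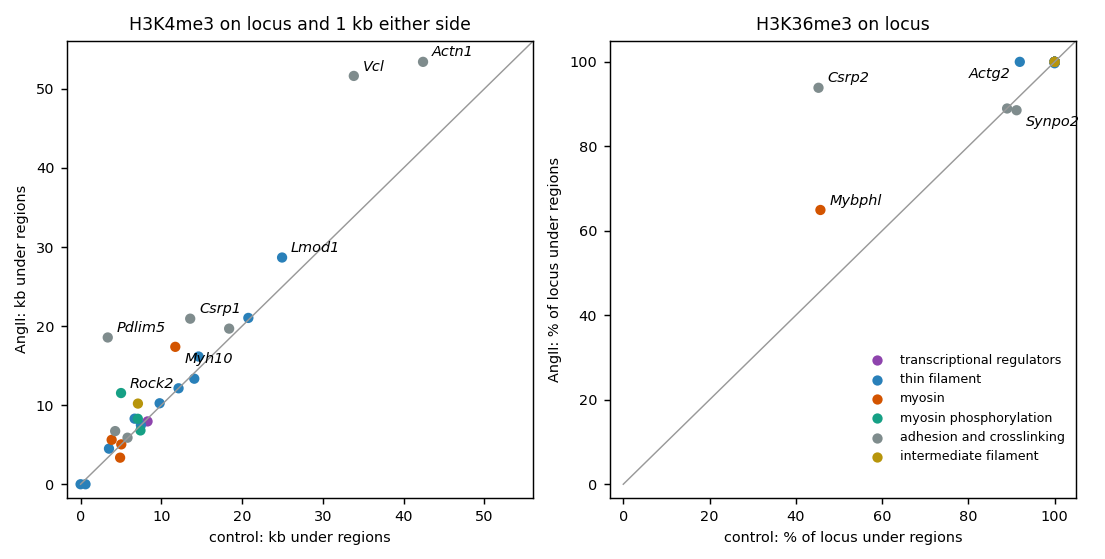
Chromatin marks at the 27 expressed genes with an interval of their own, AngII on the vertical and control on the horizontal axis, coloured by role; left, kb under H3K4me3 regions on the locus and 1 kb either side, and right, % of the locus under H3K36me3 regions. The line marks equal values; Vcl (51.6 against 33.8 kb) and Pdlim5 (18.6 against 3.37 kb) lie above it on the left, and Csrp2 (93.9% against 45.3%) on the right.

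H3K4me3 was found within 1 kb of 36 of the 38 expressed members after AngII and 37 in control, beside 96.3% of expressed symbols in either condition. These counts include the 11 members with shared intervals, where the region may belong to another locus. Actg2 had 1 region of 0.612 kb in control (chromosome 4, 117745253 to 117745864) and none after AngII, when the nearest lay 6.04 kb away. Cald1 had none in either condition, with the nearest 6.01 kb from its listed end after AngII and 6.85 kb in control. For the weakly expressed Des the nearest region lay 0.653 kb away after AngII and 12.7 kb away in control.

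H3K36me3 touched all 38 expressed members in both conditions, beside 97.5% of expressed symbols after AngII and 95.6% in control. The 38 include 11 with shared intervals, where an overlap of 1 bp is easily met, as over the 1401 kb listed for Srf. H3K36me3 covered the whole locus at 22 of the 27 members with their own interval in each condition, beside 61% of all such symbols after AngII and 59.9% in control. Of the 20 abundant members it did so at 18 in each condition, beside 82.5% of abundant symbols after AngII and 80.9% in control. Mean cover over the 27 members was 97.6% after AngII and 94.9% in control. Over all such symbols it was 90.1% and 86.3%, and over the abundant symbols 97.7% and 96.5%. Cover was higher by over 20 points after AngII at 1 member, Csrp2, beside 8.2% of symbols, and lower by over 20 points at none, beside 2.29%. Among the 20 abundant members, which leave out Csrp2, it was so at none in either direction, beside 2.08% of abundant symbols with higher and 0.445% with lower cover. Csrp2, a LIM protein of muscle differentiation with 16.7 FPKM after AngII and 12.1 FPKM in control, had 93.9% of its locus covered after AngII and 45.3% in control. The region began 1.19 kb from the lower-numbered end of the locus (chromosome 7, 49910234 to 49929536) after AngII and 10.6 kb from it in control. Mybphl, the gene with lower RNA, had 64.9% of its locus covered after AngII and 45.7% in control, while its stretch under H3K4me3 was 3.36 kb after AngII and 4.90 kb in control.

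**Figure D4:**
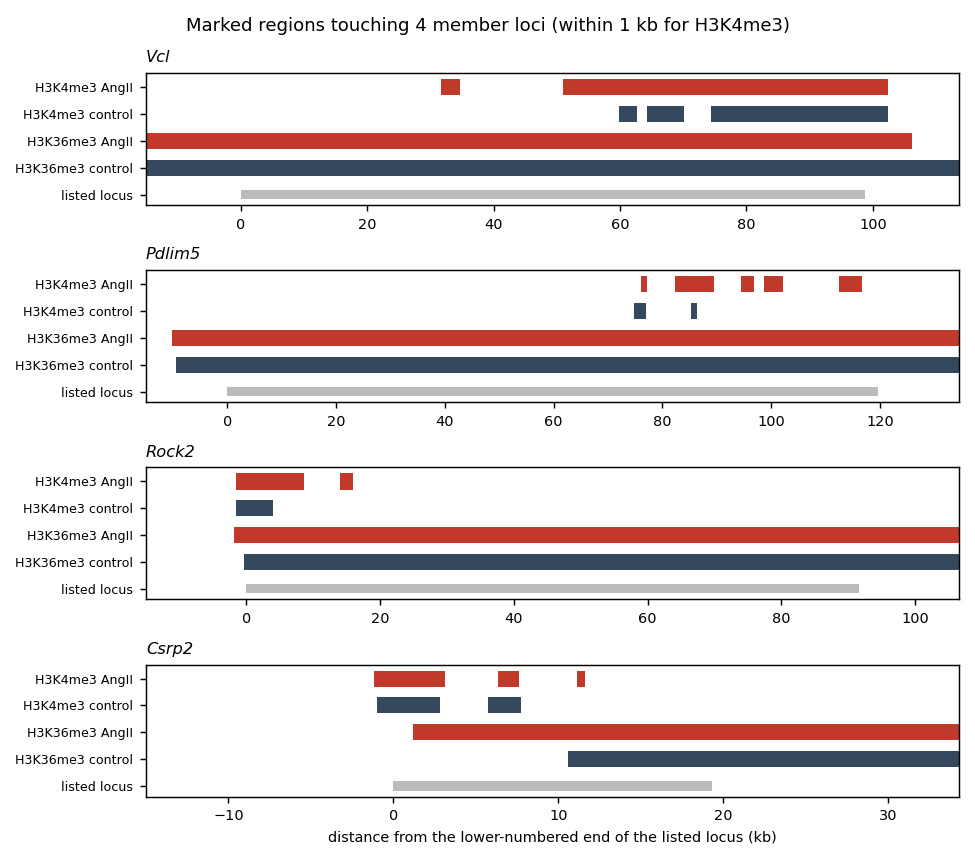
Regions of both marks at Vcl, Pdlim5, Rock2 and Csrp2, with AngII above control for each mark, against the distance in kb from the lower-numbered end of the listed locus (grey bar). H3K4me3 regions are longer after AngII at Vcl, Pdlim5 and Rock2, and the H3K36me3 region of Csrp2 starts at 1.19 kb after AngII and at 10.6 kb in control.

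Of 60 expressed genes on a list of 79 others of the contractile and adhesion pathways, 2 were 2-fold higher and both had bounds apart. This share is near that over all expressed symbols, of which 3.89% were 2-fold higher and 3.02% higher with bounds apart. None of the 60 was 2-fold lower, beside 2.96%. Above 0 lay 38, beside 30% of expressed symbols, with a median log2 ratio of 0.08 beside -0.22. The 2 genes belong to the adhesion class. Filamin C (Flnc), the muscle filamin, had 232 FPKM after AngII (112 to 351) and 29.3 FPKM in control (16.7 to 41.9), a log2 ratio of 2.94 beside -0.11 for the member Flna. Integrin alpha 5 (Itga5), a fibronectin receptor subunit, had 139 FPKM after AngII (76.2 to 202) and 33.0 FPKM in control (19.2 to 46.8), a log2 ratio of 2.04 beside -0.23 for Itga8 and -0.41 for Itga1. Flnc and Itga5 each matched 2 loci. Itga1 and the parvin gene Parva (-0.23) were the lowest of this class.

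In the remaining classes bounds overlapped throughout. The counts above 0 that follow stand beside 30% of all expressed symbols, whose median log2 ratio was -0.22. Of 5 cofactors of serum response factor all lay above 0, from Fhl1 (0.16) and Elk1 (0.28) to Elk4 (0.60) and Fhl2 (0.88). Of 11 genes of actin dynamics 10 lay above 0, led by the actin recycling factor Cap1 (0.90) and the Arp2/3 subunit Actr2 (0.59), with the severing proteins Cfl2 (-0.19) and Gsn (0.03) lowest. Of 14 genes of small GTPase signalling and myosin phosphatase 5 lay above 0, with the cofilin kinase Limk2 (0.49) and the GTPase Rhoc (0.48) highest and the GTPase Rhob (-0.89) and the guanine nucleotide exchange factor Arhgef1 (-0.53) lowest. Rhob had 53.1 FPKM after AngII and 99.3 FPKM in control. Of 15 expressed partners of the filaments 6 lay above 0, with cytoplasmic gamma-actin, Actg1 (0.61), and the adaptor Sorbs2 (0.43) highest and Pdlim2 (-0.90) and Synpo (-0.65) lowest. In the class of calcium and membrane genes, the caveolin gene Cav1 had the highest log2 ratio (0.32) and Calm2 the lowest (-0.05).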

How the data were processed

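RNA-seq and ChIP-seq for H3K4me3 and H3K36me3 were analysed, 6 libraries of 8 samples; the 2 input libraries were not analysed here. FPKM values with lower and upper bounds were deposited by the authors; the submitters' processing notes list TopHat, Cufflinks, Cuffdiff and rn4, with no versions. Ribosomal RNA had been depleted, per the labels' protocols. Both RNA samples came with the same table, which holds both conditions. Sequencing depth is unknown. H3K4me3 and H3K36me3 came as lists of regions, with a score deposited by the authors that served only to filter regions within a list. Bowtie is in the processing notes, with a region caller not given in the sources used here. Each list has its own bin width.

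Accessions were paired with symbols through a RefSeq table of GRCr8, used for names only. Strand is not given, and coordinates are as listed. The model SD of a log2 ratio takes each upper bound as 2 SD above its estimate and holds no replicate variation. H3K4me3 was counted at a gene with a region within 1 kb, and H3K36me3 where a region overlapped its locus by 1 bp. Share intervals are exact Clopper-Pearson and cover counting error only. With 1 library per condition no p-value was computed. The calculations, in Python 3.11.15 with pandas 2.3.3 and scipy 1.17.1, were run on control values with set changes and no added noise. That run checks the code only. The members and lists were chosen with earlier results of these data known. Every matched member is named; full values are given for members with bounds apart or an absolute log2 ratio of at least 0.58, for the 5 most abundant and for Myocd and Srf, and of the pathway list for genes with bounds apart. The 2 highest and 2 lowest genes per class, of which 1 is not reported here, are named with their log2 ratios, and genes whose marks differ in presence or by over 20 points of cover are named. Alternatives varied the pseudocount, scaling, FPKM minimum, fold threshold, H3K4me3 window, region score and the use of shared intervals.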

Additional observations from a re-analysis of the deposited data

How the results depend on the processing

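Counts past a fold threshold depended on the scaling. The number of members 2-fold higher was 0 as reported, 1 with a pseudocount of 0.1 (Myocd), 6 when centred, 3 when scaled to the upper quartile and 9 with a threshold of 1.5-fold. The number 1.5-fold higher, 9 as reported, was 15 when centred (beside 13.5% of expressed symbols) and 5 among loci with coordinates of their own and 1 locus per symbol, where fewer genes were counted. The median log2 ratio went to 0.35 when centred. Of the 60 expressed genes of the pathway list 5 were 2-fold higher when centred, beside 5.88% of expressed symbols. With a threshold of 1.5-fold 8 of them were higher, beside 7.94%, and 3 lower, beside 16.4%. Among loci with coordinates of their own and 1 locus per symbol, H3K4me3 was found at 23 members after AngII and 24 in control. H3K36me3 was found at 25 in both, which is every such member. Members with H3K4me3 at least 1.5 times as long after AngII numbered 7 with regions above the lower score quartile, 6 on the locus alone and 4 within 5 kb, settings chosen after seeing the data; Rock2 and Itga8 were among them in each, Vcl and Csrp1 were not within 5 kb, and Pdlim5 was not with the score filter. Of the values that answer the comparisons 57 kept within their tolerance and 14 moved; of single genes 149 kept within 1 model SD and 3 moved, Tpm1 (0.51) and Ppp1r12a (0.51) when centred and Mybphl (-1.36) with a pseudocount of 5. No member past 1.5-fold changed direction, while uncalled members near 0 changed sign under centring, which leaves 34 of 38 above 0. No paired analysis was possible because a condition has 1 library per assay, and for the same reason no library could be left out. FPKM bounds, with a median model SD of 0.45 on the log2 scale over the members, limit what a single pair of libraries can show.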

Other observations

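Muscle genes outside the smooth muscle programme had little RNA, with exceptions named after their values were seen. None of 6 cardiac markers was expressed, the highest being Tnnt2 at 0.186 FPKM after AngII and 0.190 FPKM in control. Of 8 skeletal muscle markers 5 were expressed. The skeletal actin Acta1 had 61.4 FPKM after AngII and 76.4 FPKM in control, and its letters are close to those of the other actins, so its level is uncertain. The skeletal heavy chain Myh1 had 32.3 FPKM after AngII (18.5 to 46.1) and 17.7 FPKM in control (10.3 to 25.1), a log2 ratio of 0.83. H3K36me3 covered 100% of its locus in both conditions. Such cover was found at 61% of expressed symbols with an interval of their own after AngII and 59.9% in control. The neighbouring heavy chains Myh2 and Myh4 had 4.63 and 1.66 FPKM after AngII and 3.74 and 1.04 FPKM in control, while the skeletal determinant Myod1 had 0.0203 FPKM after AngII and 0 FPKM in control. H3K36me3 covered 91.4% of the Myh2 locus after AngII and 93.3% in control, and 0% of the Myh4 locus in both.

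Desmin had almost no RNA, and regions of both marks were listed at Des after AngII only. The H3K4me3 region was 0.96 kb wide and lay outside the locus, with 0.347 kb of it inside the window. H3K36me3 covered 49.8% of the Des locus after AngII, in 1 region of 3.84 kb (chromosome 9, 74638325 to 74642160), and 0% in control. Of expressed symbols with an interval of their own 8.2% gained over 20 points of H3K36me3 cover. Des was below the FPKM minimum and is not among them. The pathway genes with the largest RNA differences had longer H3K4me3 after AngII, as had 52.4% of expressed symbols with an interval of their own. It covered 9.63 kb after AngII and 3.35 kb in control at Itga5 (chromosome 7, 142254255 to 142277464), and 7.83 and 5.17 kb at Flnc (chromosome 4, 56313706 to 56341400). A link between RNA and mark was not tested. H3K36me3 covered 100% of the Itga5 locus after AngII and 99.1% in control, and 100% of the Flnc locus in both.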
